A study of Mus musculus with 6 samples.

Results

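Expression of 29 mouse genes of cholesterol synthesis, regulation, uptake and export was compared between 3 Carmil3 KO libraries and 3 WT libraries of 4T1 cells. The genes were chosen by name, with earlier results of these data known. They were 19 synthesis enzymes, 4 genes of SREBP2 control, 3 of uptake and transfer inside the cell and 3 of export and esterification. All 29 were found among the 23644 genes of the deposited table by Ensembl identifier, and 28 of them passed the filter on low values. 4T1 is a mouse mammary tumour cell line, and Carmil3 encodes a protein of the CARMIL family, which binds actin capping protein. Per the labels, the Carmil3 KO cells were clones grown from single cells and the WT cells were 4T1 control cells. Differences due to the knockout and differences due to cloning thus cannot be told apart here. Both were grown in DMEM with fetal bovine serum and antibiotics, so serum lipoproteins were present for both groups. The labels do not give the number of clones, how the knockout was made, or whether each library had a culture of its own. The spread behind every p-value is thus the spread of these 6 libraries and may be technical.

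Cells make cholesterol from acetyl units through mevalonate and isoprenoid phosphates to squalene, which is closed into lanosterol and trimmed to cholesterol. The transcription factor SREBP2 (gene Srebf2) raises the enzyme genes when sterols in the endoplasmic reticulum are scarce. It is carried to the Golgi by SCAP, and INSIG proteins hold SCAP back when sterols are plentiful. Cholesterol from endocytosed lipoproteins leaves the lysosome through NPC2 and NPC1, surplus cholesterol is esterified by SOAT1, and ABCA1 and ABCG1 export it. Oxysterols switch on Abca1 and Abcg1 through LXR nuclear receptors.

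Read totals, worked out from the steps between FPKM values, lay between 17778482 and 19046170 per library. Reads recovered over the listed genes summed to 108.73% to 109.09% of these totals. The totals are thus approximate scaling values and not exact depths. Carmil3 was listed at 0, 0.0118 and 0.0241 FPKM in Carmil3 KO replicates 1 to 3 and at 0.0360, 0.0246 and 0.0117 FPKM in WT replicates 1 to 3, too low for its loss to be detectable. The groups separated on the first principal component, and Carmil3 KO replicate 3 stood apart from the other Carmil3 KO libraries on the second. Counts are therefore also given without that library. Of 6 mammary epithelial markers all reached 1 FPKM in at least 1 library, and their summed level was 427 to 472 FPKM in Carmil3 KO and 1009 to 1101 FPKM in WT libraries. Most of that sum came from Krt8 (mean 217 FPKM in Carmil3 KO and 470 FPKM in WT) and Krt18 (227 and 522 FPKM). In Carmil3 KO libraries Krt7, Krt14, Epcam and Cdh1 were each under 1 FPKM. Their means were 0.1485, 0.0105, 0.0875 and 0.773 FPKM in Carmil3 KO, against 27.9, 2.81, 19.7 and 12.4 FPKM in WT libraries. Of the 4 listed fibroblast markers, 2 reached 1 FPKM, and their sum was 17.8 to 18.3 FPKM in Carmil3 KO and 11.4 to 12.01 FPKM in WT libraries, most of it from Pdgfra. Col1a1 measured 0.252 to 0.296 FPKM in Carmil3 KO and 1.36 to 1.74 FPKM in WT libraries, and Col1a2 and Dcn stayed near 0. Summed markers of leukocytes stayed at or below 0.199 FPKM, and those of endothelium at or below 0.0682 FPKM. Whether the epithelial and fibroblast marker differences have a part in the cholesterol gene differences was not tested. As FPKM are relative values, less RNA per cell and fewer cells of a type cannot be told apart.

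Cholesterol synthesis genes were lower in Carmil3 KO cells, from the first steps of the mevalonate arm to the last steps of the sterol arm. Of the 19 enzymes, 16 fell, 3 did not pass the test and 0 rose, also 0 at an unadjusted limma p under 0.05 and 0 by limma-voom on recovered reads. Of the 28 tested members, only the lysosomal sterol carrier gene Npc2 rose, and the exporter gene Abca1, too low for the test, was also higher in Carmil3 KO cells. The test was limma on log2(FPKM + 1), KO minus WT, fitted on the 11171 genes that reached 1 FPKM in 3 or more libraries and adjusted by the Benjamini-Hochberg method over all of them, at a threshold of 0.05. A log2 change on this scale understates the change of low genes. Over all members tested, 22 of 28 fell, 1 rose and 5 did not pass. Of all genes tested, 18.7% were called lower and 16.9% higher. As the members were chosen with earlier results known, their counts beside these shares are a description and not a test. Fdps passed the filter only through its WT values and so had to differ. Without it, 15 of 18 enzymes and 21 of 27 members fell. The median log2 change was -0.58 over those 27 members and -0.01 over all genes tested. Without Carmil3 KO replicate 3, 23 of 28 members fell, against 19.9% of all genes called lower in that fit.

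Of the 28 tested members, 24 had all Carmil3 KO values below all WT values and 1, Npc2, had them above. Without Fdps, 23 of 27 lay below. Among all genes tested, 26.4% lay below and 24.2% above without overlap. A log2 change of -1 or lower with a call was found for 6 members, namely Mvd, Idi1, Cyp51, Msmo1, Nsdhl and Insig1, and for 1.43% of all genes tested.

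**Figure D1:**
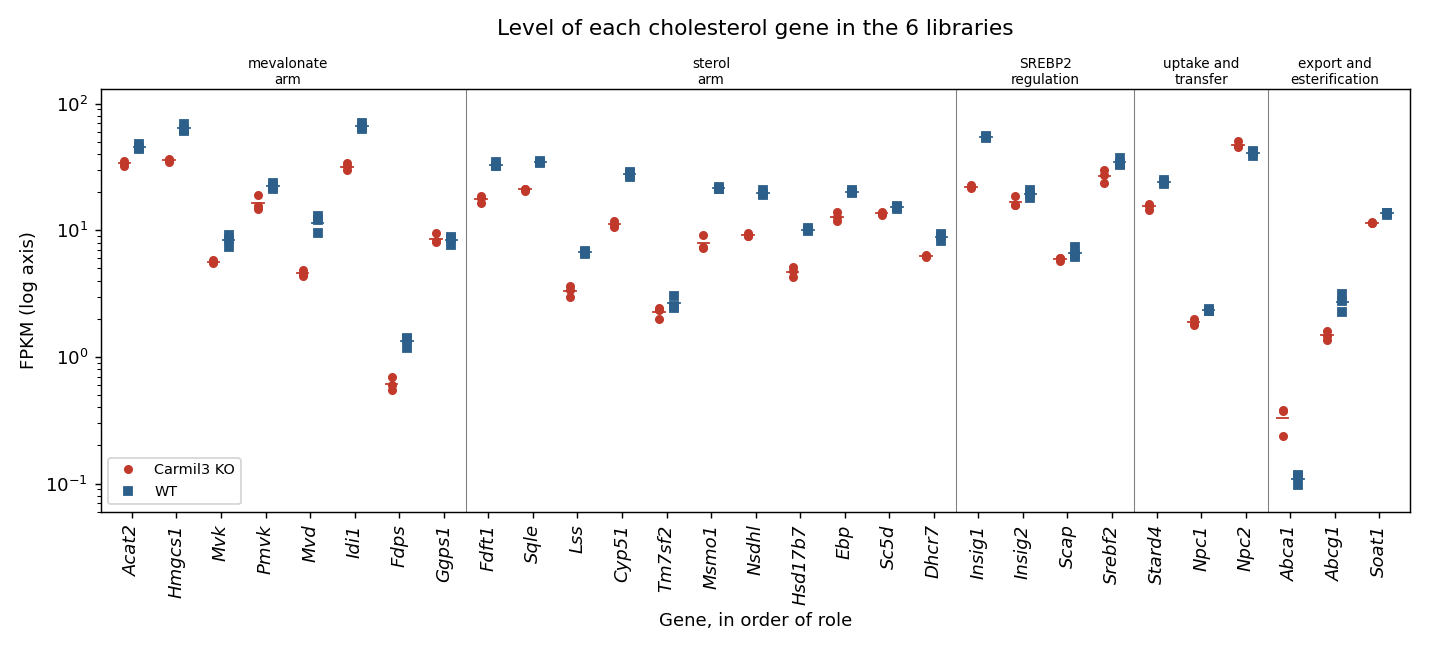
Level of the 29 genes in FPKM on a log axis, in order of role. Circles are the 3 Carmil3 KO libraries, squares the 3 WT libraries and short lines the group means; Carmil3 KO points lie below the WT points without overlap in 24 genes and above them in Npc2 and Abca1.

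The mevalonate arm begins with the thiolase gene Acat2 and with Hmgcs1, which encodes the cytosolic HMG-CoA synthase. Hmgcs1 had 34.7, 35.7 and 36.4 FPKM in Carmil3 KO libraries, against 62.0, 69.5 and 61.3 FPKM in WT libraries. The groups were far apart, and the log2 change was -0.83 ± 0.06 (SE; limma, adjusted p = 2.1e-05). Acat2 measured 34.01, 32.5 and 35.0 FPKM in Carmil3 KO libraries and 44.5, 43.9 and 47.9 FPKM in WT libraries, a smaller fall (log2 change -0.42 ± 0.06, limma, adjusted p = 0.000745). Part of the Acat2 sequence is shared: 39.1% of its 50-base stretches also occur in transcripts of Acat3 or Tcp1, so its reads may be split or mixed with theirs.

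Mevalonate is then phosphorylated by the kinases encoded by Mvk and Pmvk and decarboxylated by the product of Mvd. Mvk measured 5.62 ± 0.153 FPKM in Carmil3 KO and 8.37 ± 0.906 FPKM in WT cells (SD, n = 3 each), and Pmvk 16.5 ± 2.11 FPKM in Carmil3 KO and 22.3 ± 1.15 FPKM in WT cells; both fell. Mvd (chromosome 8, 122433601 to 122443422, minus strand, GRCm38) had 4.83, 4.53 and 4.36 FPKM in Carmil3 KO libraries, against 12.04, 9.50 and 12.87 FPKM in WT libraries. This was the largest fall of the arm in the main fit, to 39.9% of the WT mean (log2 change -1.15 ± 0.10, limma, adjusted p = 5.9e-05). WT replicate 2 was the lowest WT library for both Mvk and Mvd and still lay above every Carmil3 KO value.

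Idi1 encodes the isomerase that balances the pair of 5-carbon isoprenoid units, and Fdps and Ggps1 encode the prenyl synthases that join them. Idi1 (chromosome 13, 8885501 to 8892451, plus strand) had 29.9, 32.1 and 33.7 FPKM in Carmil3 KO libraries, against 65.8, 70.3 and 63.7 FPKM in WT libraries. It fell to 47.9% of the WT mean (log2 change -1.04 ± 0.06, limma, adjusted p = 6.8e-06). Of its 50-base stretches, 25.3% also occur in transcripts of 5 other genes. Fdps was listed at 0.549, 0.693 and 0.603 FPKM in Carmil3 KO libraries and 1.18, 1.39 and 1.42 FPKM in WT libraries, or about 44 to 54 reads in Carmil3 KO and 90 to 112 reads in WT libraries. Its level is uncertain, since 26.2% of its 50-base stretches occur in transcripts of 8 other genes and how the authors counted such reads is not known here. Ggps1, whose product makes the prenyl group for proteins and stands on a branch away from sterols, measured 8.10, 8.26 and 9.48 FPKM in Carmil3 KO and 8.64, 8.86 and 7.64 FPKM in WT libraries. The groups overlapped (log2 change 0.03 ± 0.08, limma, adjusted p = 0.758). Summed over the 8 genes of the arm, the level was 133 to 144 FPKM in Carmil3 KO libraries and 226 to 232 FPKM in WT libraries.

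The first enzymes committed to sterols, squalene synthase (Fdft1), squalene epoxidase (Sqle) and lanosterol synthase (Lss), all fell. Fdft1 had 16.4, 17.9 and 18.5 FPKM in Carmil3 KO libraries, against 32.0, 32.2 and 34.7 FPKM in WT libraries. Sqle had 21.2, 20.6 and 21.4 FPKM in Carmil3 KO libraries, against 33.96, 34.52 and 35.17 FPKM in WT libraries. Lss, the least abundant of the 3, had 3.67, 3.35 and 2.97 FPKM in Carmil3 KO libraries, against 6.48, 6.71 and 6.91 FPKM in WT libraries. None of the 3 genes had overlapping groups, and the log2 changes were -0.87 ± 0.06, -0.69 ± 0.05 and -0.83 ± 0.07 in that order. Fdft1 shares 26.5% of its 50-base stretches with transcripts of the neighbouring gene Ctsb or of Gm6781, so some of its reads may not be its own.

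Among the enzymes, Msmo1 and Cyp51, which act in the removal of methyl groups from lanosterol, had the largest falls on the log2(FPKM + 1) scale. As a share of the WT mean, Mvd (39.9%) lay between them. Msmo1, the sterol C4-methyl oxidase gene (chromosome 8, 64718139 to 64733792, minus strand), had 7.20, 7.36 and 9.18 FPKM in Carmil3 KO libraries, against 21.1, 22.0 and 21.3 FPKM in WT libraries. It fell to 36.9% of the WT mean, the lowest share of any member (log2 change -1.34 ± 0.08, limma, adjusted p = 8.9e-06). Cyp51, the lanosterol 14-alpha-demethylase gene (chromosome 5, 4081145 to 4104746, minus strand), had 10.7, 11.8 and 11.1 FPKM in Carmil3 KO libraries, against 26.4, 28.8 and 27.7 FPKM in WT libraries. The fall was to 40.5% of the WT mean (log2 change -1.23 ± 0.06, limma, adjusted p = 1.8e-06). Nsdhl and Hsd17b7 encode the dehydrogenase and the reductase that act with the Msmo1 product at carbon 4, and both fell by similar amounts. Nsdhl had 8.94, 9.03 and 9.51 FPKM in Carmil3 KO and 19.3, 18.9 and 20.7 FPKM in WT libraries, a log2 change of -1.02 ± 0.06. Hsd17b7 had 4.26, 5.17 and 4.73 FPKM in Carmil3 KO and 9.81, 10.4 and 10.1 FPKM in WT libraries, a log2 change of -0.96 ± 0.07.

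Among the other sterol enzymes the falls were smaller. Ebp, the sterol isomerase gene, measured 12.8 ± 1.07 FPKM in Carmil3 KO and 20.2 ± 0.556 FPKM in WT cells (SD, n = 3 each; log2 change -0.61 ± 0.07, limma, adjusted p = 0.000217). Dhcr7, which encodes the reductase of 7-dehydrocholesterol, measured 6.26 ± 0.148 FPKM in Carmil3 KO and 8.88 ± 0.598 FPKM in WT cells (log2 change -0.44 ± 0.06, limma, adjusted p = 0.00102). Sc5d, the sterol desaturase gene just before that step, had 13.3, 13.8 and 14.0 FPKM in Carmil3 KO libraries, against 15.4, 15.5 and 14.8 FPKM in WT libraries. Its groups did not overlap, but the log2 change of -0.14 ± 0.05 did not pass (limma, adjusted p = 0.0593); without Carmil3 KO replicate 3 it did (adjusted p = 0.039). Tm7sf2, one of the genes for sterol C14 reductase activity, had 2.46, 1.99 and 2.34 FPKM in Carmil3 KO and 2.43, 2.53 and 3.01 FPKM in WT libraries. These groups overlapped (log2 change -0.16 ± 0.09, limma, adjusted p = 0.182). Summed over the 11 genes of the arm, the level was 107 to 114 FPKM in Carmil3 KO libraries and 196 to 204 FPKM in WT libraries.

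**Figure D2:**
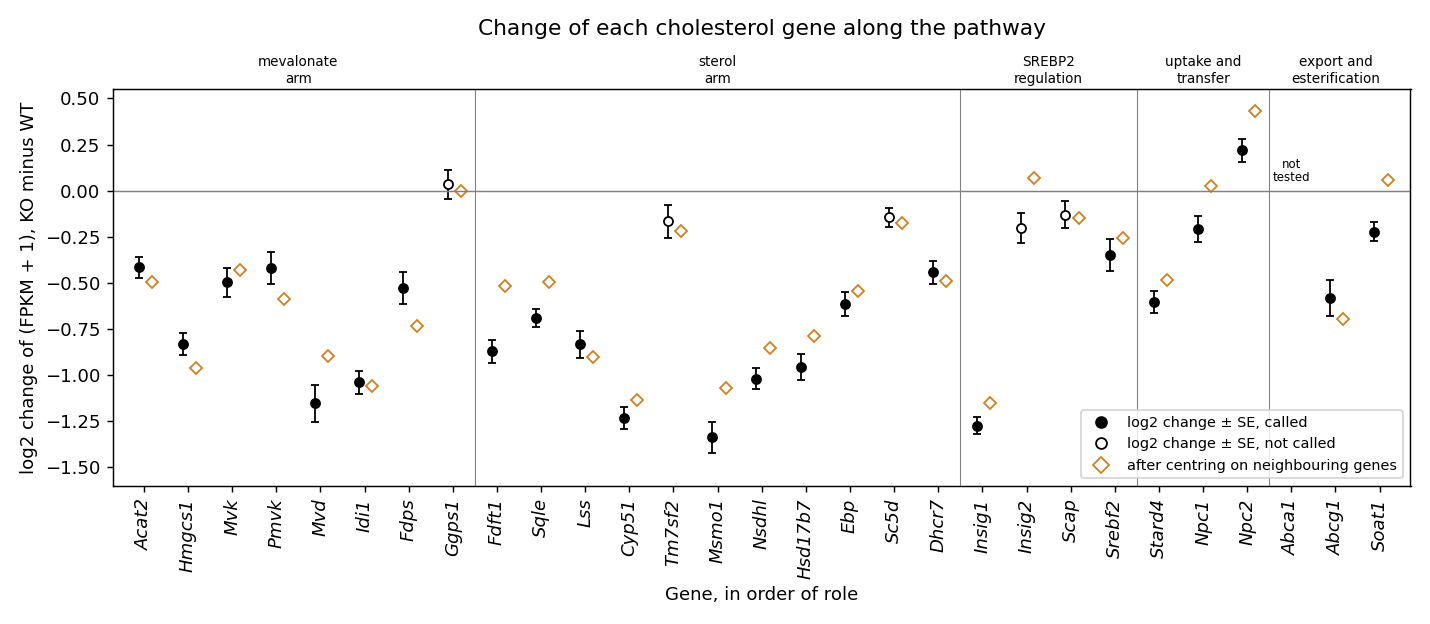
Log2 change of (FPKM + 1), KO minus WT, with its standard error for each gene in order of role; filled circles passed the test at 0.05 and open circles did not. Open diamonds give the change after each library's values were centred on the 20 nearest tested genes on each side; Msmo1, Insig1 and Cyp51 lie lowest, and Npc1, Soat1 and Insig2 move to slightly above 0 after centring.

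Of the SREBP2 control genes, Insig1 changed most. Insig1 (chromosome 5, 28071363 to 28078662, plus strand), itself a known target of SREBP2, had 21.8, 22.8 and 21.6 FPKM in Carmil3 KO libraries, against 53.8, 55.5 and 54.9 FPKM in WT libraries. The libraries of each group were close together, and the adjusted p was the smallest of all members (log2 change -1.27 ± 0.05, limma, adjusted p = 5.2e-07). Its paralog Insig2 had 15.7, 15.8 and 18.7 FPKM in Carmil3 KO and 17.9, 20.9 and 19.5 FPKM in WT libraries. Carmil3 KO replicate 3 lay within the WT range, and the log2 change of -0.20 ± 0.08 did not pass (limma, adjusted p = 0.085); without that library it passed (adjusted p = 0.0177), and after centring on neighbouring genes it was 0.07 (adjusted p = 0.564). Srebf2, the gene of the transcription factor, had 29.7, 27.5 and 23.6 FPKM in Carmil3 KO libraries, against 33.4, 33.1 and 37.0 FPKM in WT libraries. It fell by 0.35 ± 0.09 on the log2 scale (limma, adjusted p = 0.0143), a call lost without WT replicate 3 (adjusted p = 0.0511) and with no filter (adjusted p = 0.0539). Scap, the gene of the SREBP escort, measured 5.97 ± 0.181 FPKM in Carmil3 KO and 6.64 ± 0.634 FPKM in WT cells (SD, n = 3 each). That difference was not called (log2 change -0.13 ± 0.07, limma, adjusted p = 0.194), although the groups did not overlap.

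Genes of uptake and transfer inside the cell differed in direction. Stard4, which encodes a soluble sterol carrier and is also known as an SREBP2 target, had 15.6, 16.3 and 14.6 FPKM in Carmil3 KO libraries, against 24.9, 24.0 and 23.3 FPKM in WT libraries. It fell without overlap of the groups (log2 change -0.60 ± 0.06, limma, adjusted p = 0.000106). Npc2, the soluble lysosomal cholesterol carrier gene, had 46.7, 45.6 and 50.6 FPKM in Carmil3 KO libraries, against 41.5, 38.4 and 42.4 FPKM in WT libraries. The rise of 0.22 ± 0.06 on the log2 scale passed (limma, adjusted p = 0.0249), and was larger, 0.43, after centring on neighbouring genes (adjusted p = 0.00179). The call was lost without Carmil3 KO replicate 1 (adjusted p = 0.0509), WT replicate 1 (0.07025) or WT replicate 2 (0.0706), and with no filter (0.063). Npc1, the membrane partner of NPC2, had 2.01, 1.86 and 1.78 FPKM in Carmil3 KO libraries, against 2.38, 2.30 and 2.31 FPKM in WT libraries. Its fall was close to the threshold (log2 change -0.21 ± 0.07, limma, adjusted p = 0.0445). That call was lost when any 1 of the 6 libraries was left out (adjusted p between 0.0622 and 0.1455), with quantile normalization (0.0912) and with no filter (0.0716), and after centring on neighbouring genes the change was 0.03.

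The export genes Abca1 and Abcg1 differed in direction. Abca1, the gene of the transporter that loads cholesterol onto apolipoprotein A-I, was low throughout, with 0.375, 0.381 and 0.239 FPKM in Carmil3 KO libraries, against 0.117, 0.114 and 0.0979 FPKM in WT libraries. These values correspond to about 74, 73 and 45 reads in Carmil3 KO and 22, 21 and 19 reads in WT libraries. Abca1 lay below the filter and was not part of the main test; its mean was 3.03-fold higher in Carmil3 KO cells without overlap, and with no filter the adjusted p was 0.049 (limma). Abcg1, whose product passes cholesterol to high-density lipoproteins, had 1.46, 1.37 and 1.61 FPKM in Carmil3 KO libraries, against 2.77, 2.28 and 3.13 FPKM in WT libraries. It fell to 54.3% of the WT mean (log2 change -0.58 ± 0.10, limma, adjusted p = 0.00212). Soat1, the gene of the enzyme that esterifies cholesterol for storage, had 11.6, 11.4 and 11.5 FPKM in Carmil3 KO and 13.7, 13.2 and 13.8 FPKM in WT libraries. The Soat1 fall passed (log2 change -0.22 ± 0.05, limma, adjusted p = 0.0101), but the call was lost without WT replicate 1 (adjusted p = 0.0559), and the change was 0.06 after centring on neighbouring genes.

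**Figure D3:**
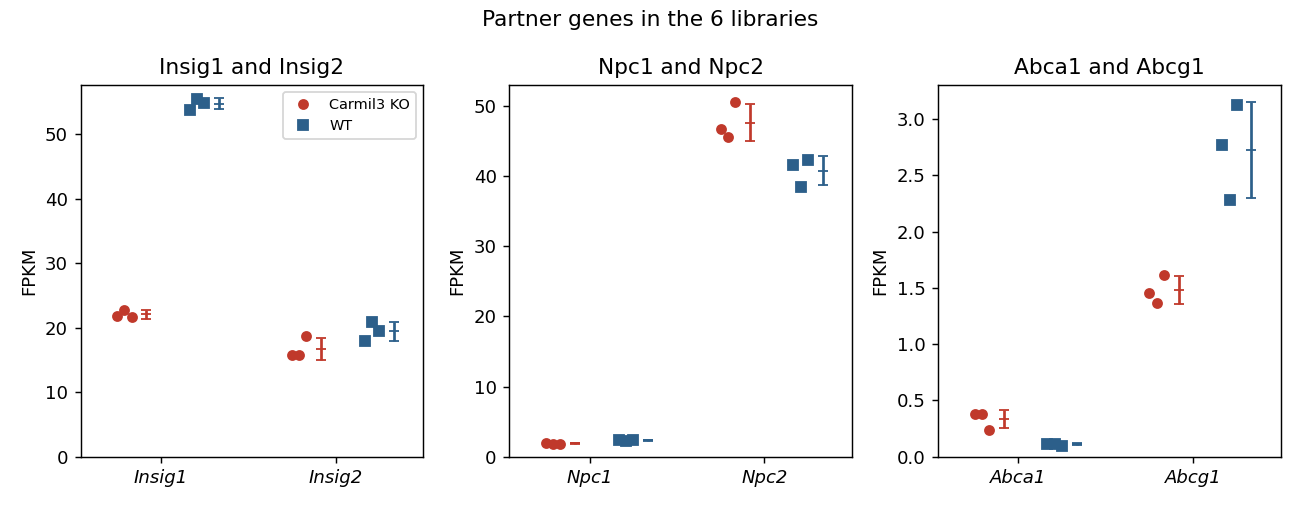
FPKM of 3 pairs of partner genes, with each library as a point (circles Carmil3 KO, squares WT) and the mean ± SD of 3 libraries beside it. Insig1 is lower in Carmil3 KO, while Insig2 is at 86.3% of its WT mean with overlapping groups. Npc1 is lower and Npc2 higher in these values, but the Npc1 change is 0.03 after centring on neighbouring genes. Abca1 is higher and Abcg1 lower in Carmil3 KO.

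Partner genes were measured in the same libraries. The difference between their log2 changes was therefore tested on the ratio of their FPKM within each library, for 5 pairs. Insig1 was 1.39, 1.44 and 1.15 times Insig2 in Carmil3 KO libraries and 3.0, 2.66 and 2.82 times Insig2 in WT libraries, a difference of -1.10 on the log2 scale. The level of Abca1 relative to Abcg1 was 0.257, 0.278 and 0.148 in Carmil3 KO libraries and 0.0421, 0.0499 and 0.0313 in WT libraries, a difference of 2.44 on the log2 scale. Msmo1 was 2.93, 3.71 and 3.92 times Tm7sf2 in Carmil3 KO libraries and 8.67, 8.67 and 7.07 times Tm7sf2 in WT libraries, a log2 difference of -1.21. For Npc1 relative to Npc2 the log2 difference was -0.53, and for Srebf2 relative to Scap it was -0.21. The ratios of the groups did not overlap in any of the 5 pairs. For Npc1 with Npc2 and for Abca1 with Abcg1 this had to be so. The genes of each of these pairs differed in opposite directions, each without overlap. How often ratios of other gene pairs separate was not counted. By exact permutation, two-sided, p was 0.1 for each, the smallest that 3 against 3 libraries allow, so no pair can pass 0.05 by this test, with or without adjustment.

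The members lie on 16 chromosomes, and expression also differed by chromosome region. The tested genes around Mvd and Msmo1 on chromosome 8 had median log2 changes of -0.26 and -0.27, and those around Fdft1 on chromosome 14 had -0.35. Around Hmgcs1, Pmvk and Fdps the median of the neighbours was above 0, at 0.13, 0.17 and 0.21. After centring on neighbours, Msmo1 was at -1.07, Mvd at -0.90, Fdft1 at -0.52 and Hmgcs1 at -0.96. Idi1 was then at -1.06, close to Msmo1, and Mvd no longer had the largest fall of the mevalonate arm. In that fit 20 members fell, Npc2 rose, and 14.2% of all genes tested were called lower.

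**Figure D4:**
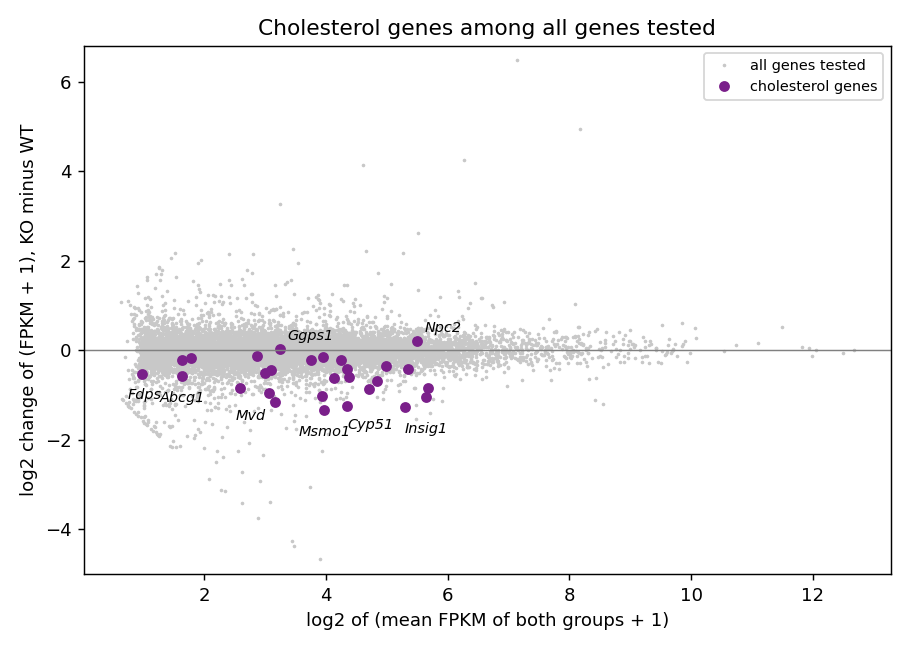
Log2 change of (FPKM + 1), KO minus WT, against the log2 of the mean FPKM of both groups + 1, for all 11171 genes tested (grey) and the 28 tested cholesterol genes (filled circles). Most cholesterol genes lie on the lower side at middle and high levels, down to -1.34 for Msmo1, while Ggps1 and Npc2 lie above 0.

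SREBP2 binds sterol regulatory elements and acts together with the factors NF-Y and Sp1, whose sites are the CCAAT box and the GC box. RefSeq promoters (GRCm38.p6, 250 bases before to 50 after each annotated start) were at hand for 23 of the 29 members, as 29 windows. The core TCACNCCAC of the sterol regulatory element, searched on both strands, was found in 1 of these windows, that of Hmgcs1, and in 1.24% of 32817 promoters in the table. With up to 1 mismatch, a rule added after the exact search, it was found in 10 of the 29 windows and in 24.2% of all promoters. CCAAT or its reverse complement ATTGG was found in 20 of the 29 windows and in 37.4% of all promoters. The GC box GGGCGG, or CCGCCC, was in 24 of the 29 windows and in 35.6% of all promoters. The DR4 element of LXR, in its strict form, was in 0 of the 29 windows and in 5 of all promoters. No mismatch was allowed for DR4, so imperfect elements could not be found and their absence is not shown. A match is a run of letters and does not show binding, and some members have several windows, a few of which overlap.

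The promoters of Hmgcs1 (chr13:119690101-119690400, plus strand), Msmo1 (chr8:64733529-64733828, minus strand), Cyp51 (chr5:4104648-4104947, minus strand) and Insig1 (chr5:28071162-28071461, plus strand) are shown because Msmo1, Insig1 and Cyp51 had the largest falls of all tested members on the log2(FPKM + 1) scale and the Hmgcs1 window alone held the exact core. Mvd and Idi1, which fell more than Hmgcs1 did, had no match to the core even with 1 mismatch in their windows, so the windows shown do not stand for all genes that fell. That of Abca1 (chr4:53159846-53160145, minus strand) is shown because the gene was higher in Carmil3 KO cells. Capitals mark the sterol regulatory core with up to 1 mismatch (9 bases) and the CCAAT or ATTGG boxes (5 bases), each sequence running 5′ to 3′ on the gene's strand.
Hmgcs1: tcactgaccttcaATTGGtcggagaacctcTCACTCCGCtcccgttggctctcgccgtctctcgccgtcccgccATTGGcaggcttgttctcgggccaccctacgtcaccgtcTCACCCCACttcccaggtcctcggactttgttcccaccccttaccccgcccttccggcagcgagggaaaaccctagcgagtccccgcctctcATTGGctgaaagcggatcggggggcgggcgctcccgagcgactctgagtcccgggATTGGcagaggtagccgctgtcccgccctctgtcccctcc
Msmo1: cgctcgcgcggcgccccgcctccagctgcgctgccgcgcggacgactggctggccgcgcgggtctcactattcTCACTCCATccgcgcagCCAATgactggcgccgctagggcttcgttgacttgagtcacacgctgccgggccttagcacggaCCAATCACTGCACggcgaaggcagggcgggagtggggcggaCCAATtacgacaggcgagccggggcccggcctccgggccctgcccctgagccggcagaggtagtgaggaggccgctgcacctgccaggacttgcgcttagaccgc
Cyp51: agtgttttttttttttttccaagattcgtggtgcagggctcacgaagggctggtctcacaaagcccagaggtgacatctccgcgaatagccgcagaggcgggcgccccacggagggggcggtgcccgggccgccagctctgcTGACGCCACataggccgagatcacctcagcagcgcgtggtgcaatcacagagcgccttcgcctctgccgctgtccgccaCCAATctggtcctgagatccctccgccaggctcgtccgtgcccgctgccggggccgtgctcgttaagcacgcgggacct
Insig1: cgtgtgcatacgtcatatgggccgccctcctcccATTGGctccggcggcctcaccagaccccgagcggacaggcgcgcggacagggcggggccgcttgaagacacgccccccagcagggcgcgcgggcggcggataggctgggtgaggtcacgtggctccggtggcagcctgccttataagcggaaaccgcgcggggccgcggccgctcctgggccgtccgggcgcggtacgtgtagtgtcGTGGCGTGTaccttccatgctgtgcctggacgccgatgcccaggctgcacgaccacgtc
Abca1: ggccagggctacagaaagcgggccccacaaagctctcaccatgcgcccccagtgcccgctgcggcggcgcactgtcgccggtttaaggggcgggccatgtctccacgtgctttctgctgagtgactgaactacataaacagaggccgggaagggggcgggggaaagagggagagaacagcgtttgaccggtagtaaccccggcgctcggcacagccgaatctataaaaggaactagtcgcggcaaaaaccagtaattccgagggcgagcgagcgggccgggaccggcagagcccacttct
In Hmgcs1 the exact core TCACCCCAC starts 137 bases before the annotated start, with 4 ATTGG boxes in the window. In Msmo1 the near match TCACTGCAC, 92 bases before the start, overlaps a CCAAT box, and TCACTCCAT lies 177 bases before it. Cyp51 has TGACGCCAC 108 bases before its start and 1 CCAAT box, and Insig1 has GTGGCGTGT 9 bases before its start and 1 ATTGG box. The Abca1 window holds neither the sterol core with up to 1 mismatch nor a CCAAT or ATTGG box. Imperfect DR4 elements were not searched for in it.

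Other genes around the pathway were counted in 6 lists, also chosen with earlier results of these data known. The counts are to be read against the 18.7% of all tested genes called lower and the 16.9% called higher. Of 14 genes of fatty acid synthesis, many of them also SREBP targets, 10 fell and 0 rose (limma; also 0 at an unadjusted p under 0.05 and 0 by limma-voom), with a median log2 change of -0.39. The number that fell was 8 with no filter and 8 without WT replicate 1, 2 or 3. The desaturase gene Scd1 had 31.2, 30.6 and 30.1 FPKM in Carmil3 KO libraries, against 54.3, 57.5 and 55.5 FPKM in WT libraries, and Scd2 had 252 ± 6.31 FPKM in Carmil3 KO and 389 ± 5.90 FPKM in WT cells (SD, n = 3 each). Of 10 genes of SREBP processing and sterol-regulated protein degradation, 5 fell and 0 rose (limma; 2 at an unadjusted p under 0.05 and 1 by limma-voom), with a median log2 change of -0.21. After centring on neighbouring genes 3 fell, and without Carmil3 KO replicate 3 the number that rose was 2. Srebf1, the gene of SREBP1, had a log2 change of -0.41, and Erlin1, which encodes a membrane protein of the endoplasmic reticulum, had -0.26. Of 3 tested sterol enzyme genes outside the 29, Erg28, whose yeast counterpart is a scaffold of the C4 demethylation enzymes, measured 6.68 ± 0.448 FPKM in Carmil3 KO and 10.3 ± 0.580 FPKM in WT cells and fell (log2 change -0.55). Lbr, the lamin B receptor gene with sterol reductase activity, fell by 0.19 on the log2 scale, and Acat1 did not pass (log2 change 0.02). Of the 2 falls in this list, 1 was called without Carmil3 KO replicate 1, Carmil3 KO replicate 2 or WT replicate 1, and after centring.

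The other 3 lists lie further from the synthesis steps. Of 16 tested genes of sterol uptake, hydrolysis and transfer, 5 fell and 3 rose, with a median log2 change of -0.11, beside 18.7% lower and 16.9% higher among all tested genes. The number that rose was 1 without Carmil3 KO replicate 1 or WT replicate 1, 2 with no filter, and 0 with a filter of 5 FPKM. Lipa, the lysosomal acid lipase gene, had 5.82, 5.11 and 4.62 FPKM in Carmil3 KO libraries, against 8.02, 7.84 and 9.00 FPKM in WT libraries, and Scarb2, a lysosomal membrane protein gene, had a log2 change of -0.40. The genes that rose were Gramd1b, Stard5 and Apoe. Apoe, which encodes apolipoprotein E, passed the filter only through Carmil3 KO libraries and so had to differ, as Fdps did. It had 1.18, 1.47 and 1.496 FPKM there, against 0.797, 0.579 and 0.775 FPKM in WT libraries. Of 13 genes that use isoprenoids, 4 fell and 0 rose (limma; 1 at an unadjusted p under 0.05 and 0 by limma-voom), with a median log2 change of -0.06, beside 18.7% lower among all tested genes. Only 1 fell without Carmil3 KO replicate 2, WT replicate 1 or WT replicate 3 and after centring, and 2 fell without Carmil3 KO replicate 1, with either other filter and with quantile normalization. Among those that fell were Rabggta (log2 change -0.52), which encodes a subunit of a Rab prenyltransferase, and Fntb (-0.32), the gene of a farnesyltransferase subunit. Of 6 tested genes of LXR and oxysterols, Rxrb rose by 0.19 and Rxra fell by 0.20 on the log2 scale, both close to the threshold (limma, adjusted p = 0.0433 and 0.0373). The Rxrb call was lost without any 1 of the 3 Carmil3 KO libraries, WT replicate 1 or WT replicate 2, with no filter, after centring and with a plainer variance model. The Rxra call was lost without Carmil3 KO replicate 2 or 3 or WT replicate 1 or 3, and with no filter. The LXR genes Nr1h2 and Nr1h3 did not pass (log2 changes 0.02 and 0.02), and the LXR target Mylip did not pass either (log2 change -0.23, limma, adjusted p = 0.0782).

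In WT cells the most abundant members per length were Idi1 at 66.6 ± 3.35 FPKM, Hmgcs1 at 64.3 ± 4.52 FPKM and Insig1 at 54.7 ± 0.883 FPKM (SD, n = 3). The WT values of Idi1 and Hmgcs1 overlapped, and Insig1 lay below both. In Carmil3 KO cells the most abundant member was Npc2 at 47.6 ± 2.63 FPKM, followed by Hmgcs1 at 35.6 ± 0.890 FPKM and Acat2 at 33.8 ± 1.27 FPKM, which overlapped each other. Carmil3 KO replicate 3 held the highest of the 3 Carmil3 KO values for 15 of the 29 members, Pmvk, Msmo1 and Insig2 among them, and the lowest for 9, Srebf2, Lss and Abca1 among them.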

How the data were processed

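RNA was sequenced from 3 Carmil3 KO and 3 WT libraries of 4T1 cells, grouped by title and genotype. The authors deposited 1 table of FPKM values, scaled by exon length and depth, a unit inferred from the values themselves. The genome build mm10 and the tools HTSeq 0.6.0, TopHat2 2.0.12, TopHat, Bowtie2, Bowtie and CASAVA are named, per the submitters' processing notes. What each tool did, the annotation, the strand setting and the treatment of multiply mapped reads are not known here, so reads of overlapping or near-identical genes cannot be told apart.

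Identifiers were matched to GENCODE M21 (GRCm38), with a symbol for 23587 of 23644 rows. For FPKM multiplied by annotated exon length, 92.0% to 92.3% of values up to 500 reads were whole multiples of 1 step per library within 0.02, which gave approximate read numbers and totals. Values were tested with limma 3.58.1 in R 4.3.3 (pseudocount 1, eBayes with trend and robust). On simulated reads for this comparison (10938 genes), 92.2% of genes changed 1.5-fold, 95.5% of those changed 2-fold and 98.4% of those changed 4-fold were recovered, with 21 unchanged genes called. The simulation used the same dispersion for all genes and libraries and held no library that stood apart. Its shares thus need not hold for the real libraries. No pair of libraries within a group agreed within sampling noise (chi-square over degrees of freedom 3.02 to 19.03), so all 6 were kept. Shared sequence was counted as 50-base stretches found in GENCODE transcripts of other genes. Python 3.11.15 was used for the other steps.

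Alternatives were other pseudocounts, filters and scalings, a plainer variance model, the replicate number as a block, centring on neighbouring genes, limma-voom on recovered reads, and each library left out with the tested genes kept. All 29 members are named. From each other list up to 2 called genes per direction with the smallest adjusted p and a higher mean of at least 2 FPKM are named; Apoe, Stard5, Acat1, Nr1h2, Nr1h3 and Mylip were added after their values were seen. One further gene, first placed in the SREBP processing list, was taken out of that list and its counts and is not reported here. The members and lists were chosen with earlier results of these data known.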

Additional observations from a re-analysis of the deposited data

How the results depend on the processing

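Of 28 tested members, 21 kept their direction and their side of the threshold under every alternative that could be fitted (up to 16 each). Between 19 and 23 members fell over the alternatives. With a filter of 5 FPKM, which leaves out low members, 19 fell, beside 20.5% of all genes tested in that fit. With 1 library left out 20 to 23 fell, beside 12.2% to 19.9% of all genes tested. Npc2 was the 1 member that rose, and 0 to 1 rose with 1 library left out; with no filter Npc2 was not called (adjusted p = 0.063) and Abca1 was (adjusted p = 0.049, limma). Changes of sign were found for Ggps1 (-0.0024 after centring on neighbours, -0.029 without Carmil3 KO replicate 3, -0.0236 without WT replicate 3, with up to 0.0733 when another library was left out), and after centring for Insig2 (0.0702), Npc1 (0.026) and Soat1 (0.0557); their cause was not tested. Over all genes, 1182 to 2041 were higher and 1358 to 2218 lower with 1 library left out, the lowest counts without WT replicate 1. In the other 6 lists 4 genes rose in all, including Apoe, whose direction was set by the filter. The number was 2 with no filter, 1 with a filter of 5 FPKM and 1 to 5 with 1 library left out. It was 1 without WT replicate 1 or Carmil3 KO replicate 1, and 2 without WT replicate 2 or Carmil3 KO replicate 2. The difference between Abca1 and Abcg1 was 2.44 on the log2 scale and 0.31 with a pseudocount of 5, which is far above the level of Abca1.

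Same-numbered libraries of the groups had correlated deviations of -0.06, 0.15 and 0.10, and not every library correlated best with its own number, so the numbers were not taken as pairs. With the replicate block 21 members fell and 1 rose, beside 19% of all genes tested called lower and 17% called higher. Npc1 was not called in that fit (adjusted p = 0.0664, limma). At these depths Abca1 and Fdps rest on the fewest reads, so their folds are the least precise.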
